A study of Mus musculus with 16 samples.

Results

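The genes described here are 10 that encode secreted proteins of the tendon matrix: the thrombospondins Thbs1, Thbs2, Thbs3, Thbs4 and Comp, the tenascins Tnc and Tnxb, and the adhesive or matricellular proteins Postn, Sparc and Fn1. They were taken by gene symbol from a deposited table of 41204 genes, each symbol matched 1 row, and all 10 passed the filter on low counts that left 23754 genes to test. RNA was sequenced from 4 tendons of C57BL/6J mice, an inbred laboratory strain, with 4 libraries per tendon: the supraspinatus tendon of the shoulder's rotator cuff (Supraspinatus), the patellar tendon below the kneecap (Patellar), the flexor tendon of the forepaw (Flexor) and the Achilles tendon of the heel (Achilles). No treatment or altered allele is given in the labels for any group, nor are age or sex, and the study's design compares every pair of tendons. The labels number the libraries as mice 1 to 4 within each tendon but do not say how they relate across tendons, so the p-values measure the spread between these libraries.

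Matricellular proteins sit in the extracellular matrix but act mainly as adaptors between collagen, proteases, growth factors and cell surface receptors rather than as load-bearing fibres. The thrombospondins fall into a subgroup that assembles as trimers and binds cell receptors such as CD36 and CD47 (Thbs1, Thbs2) and a subgroup that assembles as pentamers and binds collagens and other matrix proteins (Thbs3, Thbs4, Comp). Comp, cartilage oligomeric matrix protein, and Thbs4 are abundant in tendon. Tenascin-X, the product of Tnxb, helps to set collagen fibril spacing, and its loss causes a form of Ehlers-Danlos syndrome in humans, while tenascin-C (Tnc) is prominent in developing, loaded and healing tendon.

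Library totals lay between 86898889 and 107805065 counts in Supraspinatus, 34559686 and 63235636 in Patellar, 97242489 and 106573353 in Flexor, and 84414005 and 97180849 in Achilles. A set of 7 genes with rRNA-like sequence took 29.7% ± 12.1 of the Patellar counts (SD, n = 4) and a mean of 2.17% to 4.18% in the other tendons. All of the 20 skeletal muscle markers were detected in every tendon, and together they took 15.4% to 16.4% of counts in Supraspinatus, 0.0564% to 0.865% in Patellar, 7.88% to 11.2% in Flexor and 5.13% to 9.67% in Achilles. The tendon markers Scx and Tnmd were present in every library, with Scx averaging 56.3 CPM (counts scaled to the library total) in Supraspinatus, 102 CPM in Patellar, 4.90 CPM in Flexor and 18.8 CPM in Achilles. In the same order Tnmd averaged 157, 320, 104 and 182 CPM, and Mkx 31.7, 92.7, 38.7 and 41.1 CPM. The 9 tendon markers together took 1.39% ± 0.884, 4.06% ± 1.46, 1.38% ± 0.203 and 1.75% ± 0.752 of counts (SD, n = 4), so Scx alone does not stand for the list. In exact two-sided permutation tests of 13 marker lists in 6 comparisons, 41 of 78 had a p under 0.05 and 0 passed adjustment, the smallest adjusted p being 0.0544. With 4 against 4 libraries the p of this exact test cannot fall below 0.0286, however far apart the shares lie. That no test passed adjustment therefore does not show that the shares were equal. CPM levels here and below are scaled by the trimmed mean of M-values (TMM), and in such bulk tissue fewer cells of a type and less RNA per cell cannot be told apart.

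All 10 genes differed over the 4 tendons in the edgeR quasi-likelihood test at an adjusted p under 0.05, as did 64.9% of all genes tested. In Flexor minus Achilles 3 of the 10 passed (16.2% of all genes tested did), with 2 higher (6.50%) and 1 lower (9.72%). In Patellar minus Achilles 5 passed (38.4%), with 2 higher (17.4%) and 3 lower (21.1%), and in Supraspinatus minus Achilles 5 passed (33.6%), with 2 higher (16.9%) and 3 lower (16.7%). In Patellar minus Flexor 6 passed (50.3%), with 3 higher (24.2%) and 3 lower (26.2%). Supraspinatus minus Flexor had 4 (27.1%), with 2 higher (14.7%) and 2 lower (12.4%), and Supraspinatus minus Patellar 3 (53.3%), with 2 higher (26.4%) and 1 lower (26.8%). The share of the 10 was below the background in Supraspinatus minus Patellar and above it in the other comparisons. Each share rests on 10 genes and was not tested against the background, so these counts do not set the 10 apart from other genes.

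The CPM ranges of the 2 tendons did not overlap for 3 of the 10 genes in Flexor minus Achilles (31.0% of all genes tested), 5 in Patellar minus Achilles (32.4%), 1 in Supraspinatus minus Achilles (41.5%), 7 in Patellar minus Flexor (41.4%), 3 in Supraspinatus minus Flexor (39.9%) and 1 in Supraspinatus minus Patellar (41.2%). The median absolute log2 fold change of the 10 genes was above that of all genes tested in 5 comparisons (for example 1.21 against 0.612 in Patellar minus Achilles) and below it in Supraspinatus minus Patellar (0.601 against 0.84). Comparisons that share a tendon share its 4 libraries and are not independent of each other.

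**Figure D1:**
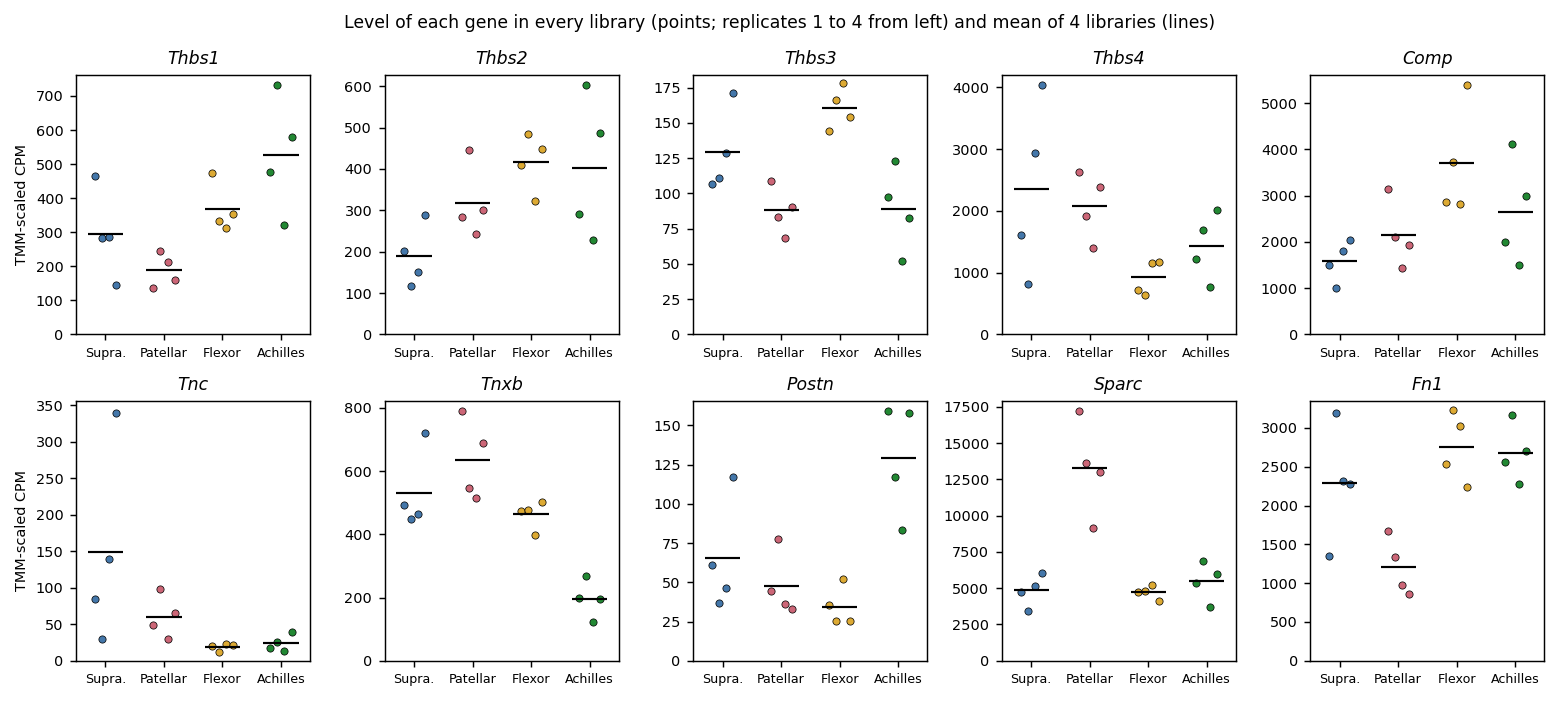
TMM-scaled CPM of the 10 genes in the 16 libraries, 1 panel per gene with its own linear axis from 0; points are libraries and lines are the mean of 4. Sparc stands above the other tendons in Patellar, Tnxb is lowest in Achilles, Postn is lowest on average in Flexor and highest in Achilles, and Tnc spreads from 30.2 to 340 CPM within Supraspinatus.

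Taken per kilobase of exon, so that genes of different length can be compared, Sparc had the highest mean in Supraspinatus, Patellar and Achilles and tied with Comp in Flexor, at 1280, 3500, 1250 and 1450 CPM per kilobase in Supraspinatus, Patellar, Flexor and Achilles. Comp and Thbs4 followed, and Fn1 was the fourth in every tendon. The other end held Tnc and Postn, with Tnc last in Flexor (2.46 CPM per kilobase) and Achilles (3.08 CPM per kilobase) and Postn last in Supraspinatus (7.51 CPM per kilobase) and Patellar (5.50 CPM per kilobase). Together the 10 genes took 1.08% ± 0.279 of all counts in Supraspinatus, 1.98% ± 0.619 in Patellar, 1.43% ± 0.144 in Flexor and 1.55% ± 0.474 in Achilles (SD, n = 4).

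Among the pentameric thrombospondins, Thbs4 and Comp had their highest means in different tendons, Supraspinatus for Thbs4 and Flexor for Comp. Thbs4 (chr13:92751590-92794818, GRCm38, minus strand, 22 merged exons) had 1604, 809, 2938 and 4038 CPM in Supraspinatus, 2624, 1919, 1393 and 2386 CPM in Patellar, 720, 635, 1157 and 1178 CPM in Flexor and 1228, 1692, 766 and 2017 CPM in Achilles. All Patellar libraries lay above all Flexor libraries, while the Supraspinatus range, which spans 4.99-fold, overlapped every other tendon. Thbs4 was 2.26-fold higher in Patellar than in Flexor (log2 fold change 1.17 ± 0.42 SE, edgeR adjusted p = 0.028) and 2.54-fold higher in Supraspinatus than in Flexor (1.35 ± 0.42, adjusted p = 0.025), and its 4 other comparisons did not pass. Leaving out Flexor replicate 1 or 2, Patellar replicate 1 or 4, or Supraspinatus replicate 3 or 4 moved one or both of these adjusted p-values to between 0.067 and 0.10.

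Comp (chr8:70373558-70382066, plus strand) had 1504, 1009, 1802 and 2033 CPM in Supraspinatus, 3135, 2112, 1432 and 1925 CPM in Patellar, 2854, 3731, 2831 and 5401 CPM in Flexor and 2008, 4120, 1505 and 2994 CPM in Achilles. Every Flexor library was above every Supraspinatus library, and no other pair of tendons was apart. The 2.33-fold lower level in Supraspinatus than in Flexor was the only pairwise difference of Comp to pass (log2 fold change -1.22 ± 0.34, edgeR adjusted p = 0.013), and without Flexor replicate 4, the highest library, its adjusted p was 0.053. The 12 cartilage markers, a tissue in which Comp is also abundant, took 0.0941% to 0.206% of counts in Supraspinatus, 0.191% to 0.368% in Patellar, 0.321% to 0.701% in Flexor and 0.344% to 1.01% in Achilles, with Matn1 at 0 throughout Patellar. The share of these markers was lower in Supraspinatus than in Flexor without overlap, as Comp was. Achilles had the highest mean share of them, while mean Comp was highest in Flexor. Their part in the Comp difference was not tested.

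Set against each other within a library, a ratio that does not depend on how the library was scaled, Thbs4 had 0.962, 0.724, 1.47 and 1.79 times the per-kilobase count of Comp in Supraspinatus and 0.755, 0.820, 0.878 and 1.12 times in Patellar. The ratio was 0.228, 0.154, 0.369 and 0.197 in Flexor and 0.552, 0.371, 0.459 and 0.608 in Achilles. Flexor lay below the other 3 tendons without overlap and Achilles between Flexor and the other 2, whose ranges overlapped. In all 5 of those separated pairs the exact two-sided permutation p was 0.0286, the smallest that 4 against 4 libraries can give, and the adjusted p over 18 ratio tests was 0.0514, so none passed 0.05. Of the 5 thrombospondins taken per kilobase, Comp made up 42.0% ± 7.37 in Supraspinatus, 49.5% ± 4.17 in Patellar, 73.5% ± 5.74 in Flexor and 59.6% ± 4.14 in Achilles, and Thbs4 49.3% ± 11.2, 43.7% ± 4.03, 17.0% ± 5.27 and 29.3% ± 4.30 in the same order (SD, n = 4).

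**Figure D2:**
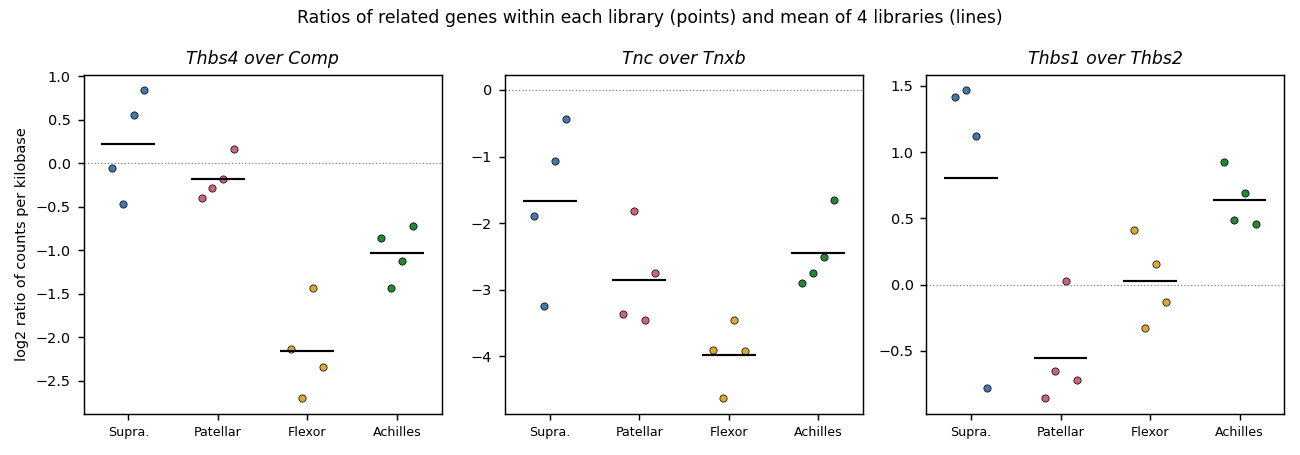
Log2 ratio of counts per kilobase for 3 pairs of related genes in each library; points are libraries, lines the mean of 4, and the dotted line marks equal counts per kilobase. Thbs4 over Comp is lowest in Flexor, where it averages 0.224, and Thbs1 over Thbs2 in Supraspinatus replicate 4 stands apart from the other Supraspinatus libraries.

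Thbs3, a pentameric thrombospondin that takes part in skeletal growth in mice, had the lowest mean of the thrombospondins per kilobase in Patellar, Flexor and Achilles, and in Supraspinatus was level with Thbs2 (26.8 ± 6.03 against 27.1 ± 10.6 CPM per kilobase). It ranged from 107 to 171 CPM in Supraspinatus, 68.7 to 109 CPM in Patellar, 144 to 178 CPM in Flexor and 51.9 to 123 CPM in Achilles. Flexor was above Patellar and Achilles without overlap, and was 1.80-fold higher than Achilles (log2 fold change 0.85 ± 0.22, edgeR adjusted p = 0.015). Patellar was 1.82-fold lower than Flexor (-0.87 ± 0.22, adjusted p = 0.0039). Supraspinatus was 1.47-fold higher than Patellar (0.56 ± 0.22, adjusted p = 0.042) with overlapping ranges, and leaving out any 1 of 5 libraries of the pair moved that adjusted p to between 0.065 and 0.14. With only genes at a mean of at least 5 CPM kept, it was 0.23. Exons of the antisense neighbour Mtx1 overlap 318 bases, 6.59%, of the Thbs3 exons, and no source used here gives the strand setting of the counting.

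The trimeric thrombospondins inhibit blood vessel growth, and Thbs1 also activates latent TGF-beta. Both were lower in Supraspinatus than in Achilles, and Thbs1 was also lower in Patellar than in Achilles and Flexor. Thbs1 (chr2:118111876-118127133, plus strand) had 464, 282, 286 and 146 CPM in Supraspinatus, 136, 246, 214 and 159 CPM in Patellar, 473, 334, 311 and 355 CPM in Flexor and 476, 733, 320 and 579 CPM in Achilles. Patellar lay below both Flexor and Achilles without overlap. Thbs1 was 2.80-fold lower in Patellar than in Achilles (log2 fold change -1.48 ± 0.31, edgeR adjusted p = 0.0016) and 1.95-fold lower in Patellar than in Flexor (-0.97 ± 0.31, adjusted p = 0.016). It was also 1.79-fold lower in Supraspinatus than in Achilles (-0.84 ± 0.31, adjusted p = 0.047), a call with overlapping ranges that was lost when any 1 of 9 of the 16 libraries was left out, with no filter on low counts (0.075) or with the 2 tendons fitted alone (0.063). The 8 markers of platelets, which store much Thbs1 protein, took at most 0.0175% of counts in any library, with Gp6 at 0 throughout Patellar. Their part in the Thbs1 differences was not tested.

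Thbs2 was lowest on average in Supraspinatus, at 118 to 289 CPM, against 242 to 446 CPM in Patellar, 322 to 484 CPM in Flexor and 229 to 604 CPM in Achilles. It was 2.19-fold lower in Supraspinatus than in Flexor, with ranges apart (log2 fold change -1.13 ± 0.31, edgeR adjusted p = 0.013), and 2.12-fold lower in Supraspinatus than in Achilles (-1.09 ± 0.31, adjusted p = 0.014). The Supraspinatus and Achilles ranges overlapped, and the adjusted p of that pair was 0.057 without Achilles replicate 2. Against Patellar, Thbs2 in Supraspinatus had a log2 fold change of -0.75 ± 0.31 with an adjusted p of 0.054. The per-kilobase ratio of Thbs1 to Thbs2 had a geometric mean of 1.75 in Supraspinatus, 0.683 in Patellar, 1.02 in Flexor and 1.56 in Achilles. Only Patellar and Flexor against Achilles were separated in this ratio, each at the smallest possible exact permutation p of 0.0286 and an adjusted p of 0.0514.

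Of the tenascins, Tnc had the largest fold changes of the 10 genes. Tnc (chr4:63959785-64047015, minus strand) had 84.2, 30.2, 140 and 340 CPM in Supraspinatus, 48.5, 98.6, 30.1 and 65.1 CPM in Patellar, 20.1, 12.2, 23.2 and 21.1 CPM in Flexor and 16.9, 25.4, 13.9 and 39.5 CPM in Achilles. Supraspinatus and Patellar were each above Flexor without overlap, and within Supraspinatus the highest library had 11.3 times the level of the lowest. Tnc was 7.75-fold higher in Supraspinatus than in Flexor (log2 fold change 2.95 ± 0.58, edgeR adjusted p = 0.0012) and 6.21-fold higher in Supraspinatus than in Achilles (2.63 ± 0.57, adjusted p = 0.0023). Without Supraspinatus replicate 4, these log2 fold changes were 2.15 and 1.83, with adjusted p-values of 0.0041 and 0.0094. It was 3.17-fold higher in Patellar than in Flexor (1.66 ± 0.56, adjusted p = 0.020), a call lost without Flexor replicate 2 (adjusted p = 0.062) or Patellar replicate 2 (adjusted p = 0.058). Supraspinatus minus Patellar (adjusted p = 0.058) and Patellar minus Achilles (adjusted p = 0.065) did not pass.

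Tnxb (chr17:34670535-34719815, plus strand, 41 merged exons) separated Achilles from all other tendons. It had 493, 448, 463 and 722 CPM in Supraspinatus, 789, 546, 516 and 689 CPM in Patellar, 474, 477, 399 and 503 CPM in Flexor and 197, 268, 124 and 196 CPM in Achilles. The highest Achilles library, at 268 CPM, was below the lowest library of every other tendon. Tnxb was 3.23-fold higher in Patellar (log2 fold change 1.69 ± 0.22, edgeR adjusted p = 3.3e-05), 2.71-fold higher in Supraspinatus (1.44 ± 0.22, adjusted p = 0.00015) and 2.36-fold higher in Flexor (1.24 ± 0.22, adjusted p = 0.0013) than in Achilles. All 3 calls held in every alternative fit that was run. Patellar was above Flexor in every library as well, but that difference did not pass (0.46 ± 0.22, adjusted p = 0.094).

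The per-kilobase ratio of Tnc to Tnxb had a geometric mean of 0.316 in Supraspinatus, 0.139 in Patellar, 0.0634 in Flexor and 0.183 in Achilles. Flexor lay below each of the other tendons without overlap, at the smallest possible exact permutation p of 0.0286 and an adjusted p of 0.0514, and the other 3 pairs overlapped.

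Tnc and Thbs4 varied together from library to library. Over the 16 libraries their log2 CPM had a Pearson r of 0.86, and 0.88 after the mean of each tendon was subtracted, a description across libraries that share tendons and preparation. Among 9150 genes with a mean of at least 10 CPM, Tnc was the second in likeness to Thbs4 over the undivided libraries and the third after the tendon means were subtracted, where Thbs4 was the second in likeness to Tnc. Both genes deviated most in Supraspinatus replicates 2 and 4 (log2 deviation -1.795 and 1.697 for Tnc, -1.291 and 1.027 for Thbs4). After the tendon means were subtracted, Tnxb, the other tenascin, had an r of 0.63 with Thbs4 and 0.47 with Tnc. The median over all 45 pairs of the 10 genes was 0.53, so Tnxb was not especially close to the 2. Higher values included Sparc with Thbs4 (0.78) and Tnc (0.70), Comp with Thbs4 (0.75) and Postn with Tnc (0.74). Thbs1 was at -0.22 with Thbs4 and -0.16 with Tnc, and Fn1 at -0.01 and -0.09. The 250 bases before the annotated start of Tnc, Thbs4 and Tnxb are shown, from RefSeq on GRCm38, 5′ to 3′ on the strand of the gene. A shared control of these genes was not tested.
Tnc, chr4:64047016-64047265, minus strand: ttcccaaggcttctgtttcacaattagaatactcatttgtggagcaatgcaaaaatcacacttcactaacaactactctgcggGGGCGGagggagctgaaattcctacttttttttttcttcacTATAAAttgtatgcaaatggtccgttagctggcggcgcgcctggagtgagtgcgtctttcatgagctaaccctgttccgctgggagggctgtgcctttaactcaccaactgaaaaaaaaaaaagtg
Thbs4, chr13:92794819-92795068, minus strand: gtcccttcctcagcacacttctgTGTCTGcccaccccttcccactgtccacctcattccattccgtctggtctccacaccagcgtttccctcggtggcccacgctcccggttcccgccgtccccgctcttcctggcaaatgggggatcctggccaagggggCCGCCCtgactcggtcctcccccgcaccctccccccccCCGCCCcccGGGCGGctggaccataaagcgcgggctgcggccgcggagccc
Tnxb, chr17:34670285-34670534, plus strand: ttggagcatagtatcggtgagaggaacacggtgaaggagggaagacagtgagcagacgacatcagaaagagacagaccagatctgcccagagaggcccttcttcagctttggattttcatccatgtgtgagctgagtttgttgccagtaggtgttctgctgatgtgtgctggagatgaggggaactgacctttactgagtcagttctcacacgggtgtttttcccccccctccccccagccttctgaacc
Capitals mark matches on either strand to 5 short motifs: the TATA box TATAAA, the CCAAT box CCAAT, the GC box GGGCGG, the E-box CAGCTG and the SMAD box CAGACA. The Tnc window holds TATAAA beginning at position -126 from the start and GGGCGG beginning at position -167. The Thbs4 window holds GGGCGG 3 times, on either strand, beginning at -89, -51 and -42, and CAGACA once on the opposite strand, and the Tnxb window holds none of the 5. Of 32851 windows of this length, 12.4% hold TATAAA, 33.8% CCAAT, 32.7% GGGCGG, 13.0% CAGCTG and 17.1% CAGACA. The matches describe letters in these windows, and 7 of the 10 genes had a window in the table.

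Postn encodes periostin, which promotes collagen cross-linking and is abundant in periosteum and ligament. It had 60.8, 36.7, 46.3 and 117 CPM in Supraspinatus, 44.6, 77.5, 36.1 and 33.2 CPM in Patellar, 35.4, 25.4, 51.9 and 25.3 CPM in Flexor and 159, 117, 83.2 and 158 CPM in Achilles. Achilles was above Patellar and Flexor without overlap. Postn was 3.74-fold lower in Flexor (log2 fold change -1.90 ± 0.37, edgeR adjusted p = 0.0025), 2.70-fold lower in Patellar (-1.43 ± 0.37, adjusted p = 0.0061) and 1.98-fold lower in Supraspinatus (-0.98 ± 0.36, adjusted p = 0.047) than in Achilles. The last of these overlapped in range and was lost when any 1 of 8 of the 16 libraries was left out, at adjusted p-values up to 0.14, when the rRNA-like genes were left out (0.052) or with no filter on low counts (0.10). The 10 bone markers took 0.0379% to 0.0963% of counts in Achilles and at most 0.00549% in any other library, with Sost and Dspp at 0 throughout Supraspinatus, and their part in the Postn difference was not tested.

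Sparc encodes osteonectin, which binds collagen and assists its processing into fibrils. It had 4745, 3439, 5160 and 6041 CPM in Supraspinatus, 17225, 13649, 9122 and 13035 CPM in Patellar, 4725, 4779, 5249 and 4124 CPM in Flexor and 5378, 6875, 3687 and 5966 CPM in Achilles. The lowest Patellar library, at 9122 CPM, was above all 12 libraries of the other tendons, which overlapped with one another. Sparc was 2.81-fold higher in Patellar than in Flexor (log2 fold change 1.49 ± 0.25, edgeR adjusted p = 0.00014), 2.42-fold higher in Patellar than in Achilles (1.28 ± 0.25, adjusted p = 0.00085) and 2.74-fold lower in Supraspinatus than in Patellar (-1.45 ± 0.25, adjusted p = 0.00015). It made up 68.4% ± 0.634 of the 10 genes per kilobase in Patellar, against 45.0% ± 4.12 in Supraspinatus, 39.3% ± 6.73 in Flexor and 45.8% ± 3.48 in Achilles (SD, n = 4). The type I collagen gene Col1a1 was second among the 9150 genes in likeness to Sparc over the 16 libraries (Pearson r = 0.946), after Col15a1 (0.955).

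Fn1, which encodes fibronectin, the adhesive protein on which cells assemble other matrix fibres, went the other way in Patellar. It had 1355, 3198, 2313 and 2277 CPM in Supraspinatus, 1676, 1342, 977 and 860 CPM in Patellar, 2538, 3230, 3018 and 2239 CPM in Flexor and 2562, 3165, 2272 and 2699 CPM in Achilles. Patellar was below Flexor and Achilles without overlap. Fn1 was 2.27-fold lower in Patellar than in Flexor (log2 fold change -1.18 ± 0.26, edgeR adjusted p = 0.0013), 2.20-fold lower in Patellar than in Achilles (-1.14 ± 0.26, adjusted p = 0.0026) and 1.88-fold higher in Supraspinatus than in Patellar (0.91 ± 0.26, adjusted p = 0.0071). The 3 comparisons without Patellar did not pass, with adjusted p-values of 0.47 to 0.94.

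**Figure D3:**
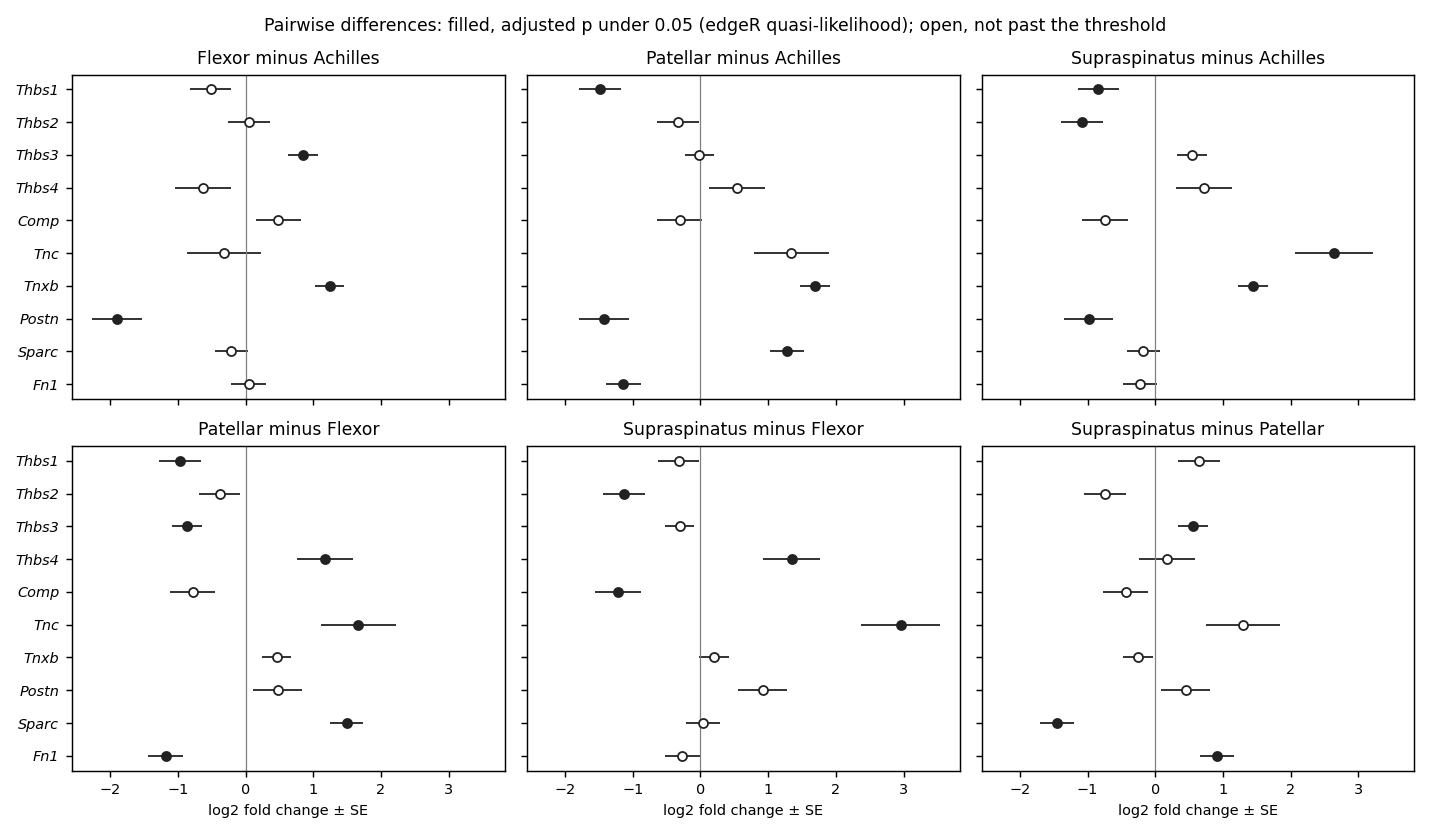
Log2 fold change with its standard error for the 10 genes in the 6 comparisons, from the fit of all 16 libraries; filled points had an adjusted p under 0.05 and open points did not. Positive values are higher in the tendon named first. Tnxb is positive in each comparison with Achilles, and Sparc and Fn1 lie on opposite sides of 0 in the comparisons with Patellar.

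The Patellar libraries also held the least muscle RNA and the most rRNA-like counts. Their mean share of the 9 tendon markers was the highest as well, at 4.06% ± 1.46 (SD, n = 4) against means of 1.38% to 1.75% in the other tendons. The part of that share in the differences was not tested. With the mean log2 CPM of the 20 muscle markers as a covariate, Sparc still differed in all 3 comparisons with Patellar (edgeR adjusted p of 0.046 or less), and Thbs1, Postn and Tnxb still differed in Patellar minus Achilles. The other calls in the comparisons with Patellar did not pass with the covariate, and their standard errors were larger. Fn1 had a log2 fold change of -0.98 ± 0.58 in Patellar minus Flexor (-1.18 ± 0.26 without the covariate), -0.96 ± 0.52 in Patellar minus Achilles (-1.14 ± 0.26 without) and 0.67 ± 0.66 in Supraspinatus minus Patellar (0.91 ± 0.26 without), with adjusted p-values of 0.22 to 0.51. In Patellar minus Flexor, Thbs1 was at -2.09 ± 0.73 (-0.97 ± 0.31 without), Thbs4 at 1.42 ± 0.92 (1.17 ± 0.42 without), Thbs3 at -0.72 ± 0.52 (-0.87 ± 0.22 without) and Tnc at 0.60 ± 1.23 (1.66 ± 0.56 without), with adjusted p-values of 0.056 to 0.76. Thbs3 in Supraspinatus minus Patellar was at 0.38 ± 0.60 (0.56 ± 0.22 without, adjusted p = 0.70 with the covariate).

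In Supraspinatus minus Achilles, Tnc and Tnxb still differed with the covariate, at 2.96 ± 0.67 and 1.31 ± 0.26. Thbs2 was at -0.82 ± 0.36 (-1.09 ± 0.31 without), Thbs1 at -0.48 ± 0.35 (-0.84 ± 0.31 without) and Postn at -0.66 ± 0.41 (-0.98 ± 0.36 without), with adjusted p-values of 0.11 to 0.34. All calls of Flexor minus Achilles and Supraspinatus minus Flexor were kept, and Postn in Supraspinatus minus Flexor was added (adjusted p = 0.037). The share of muscle markers overlapped between Flexor and Achilles and in no other pair, so in the other 5 pairs muscle content and tendon cannot be told apart. Muscle markers, mitochondrially encoded genes and rRNA-like genes were also left out of the counts, and no call of the 10 genes was lost. That step moved the median log2 fold change of all genes by -0.027 to 0.039. It changes how a library is scaled and not how much muscle it held, so it cannot show whether the calls depend on muscle content.

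Within Supraspinatus, Patellar and Achilles, though not Flexor, many of the genes were high or low in the same library. Of 45 pairs of genes, 36 had a positive Pearson r of their deviations from the tendon means, with a median of 0.53, whereas over the undivided 16 libraries 28 pairs were positive, with a median of 0.13. All 9 pairs that were not positive included Thbs1 or Fn1. The share of positive pairs among other genes was not computed, so these counts do not set the 10 apart from other genes. Flexor replicates 1 to 4 were the highest of their tendon for 1, 2, 4 and 3 genes and the lowest for 1, 2, 4 and 3. Achilles replicate 3 was the lowest Achilles library for 10 of the 10 genes and had the most muscle markers of its tendon (9.67% of counts) and the fewest tendon markers (0.738%). Supraspinatus replicate 4 was the highest Supraspinatus library for 8 genes, with 2.65% of counts in tendon markers, and Supraspinatus replicate 2 the lowest for 7, with 0.589%. Patellar replicate 3 was the lowest Patellar library for 7 genes, with 42.0% of its counts in rRNA-like genes. The part of cell makeup or RNA quality in these shared deviations was not tested.

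**Figure D4:**
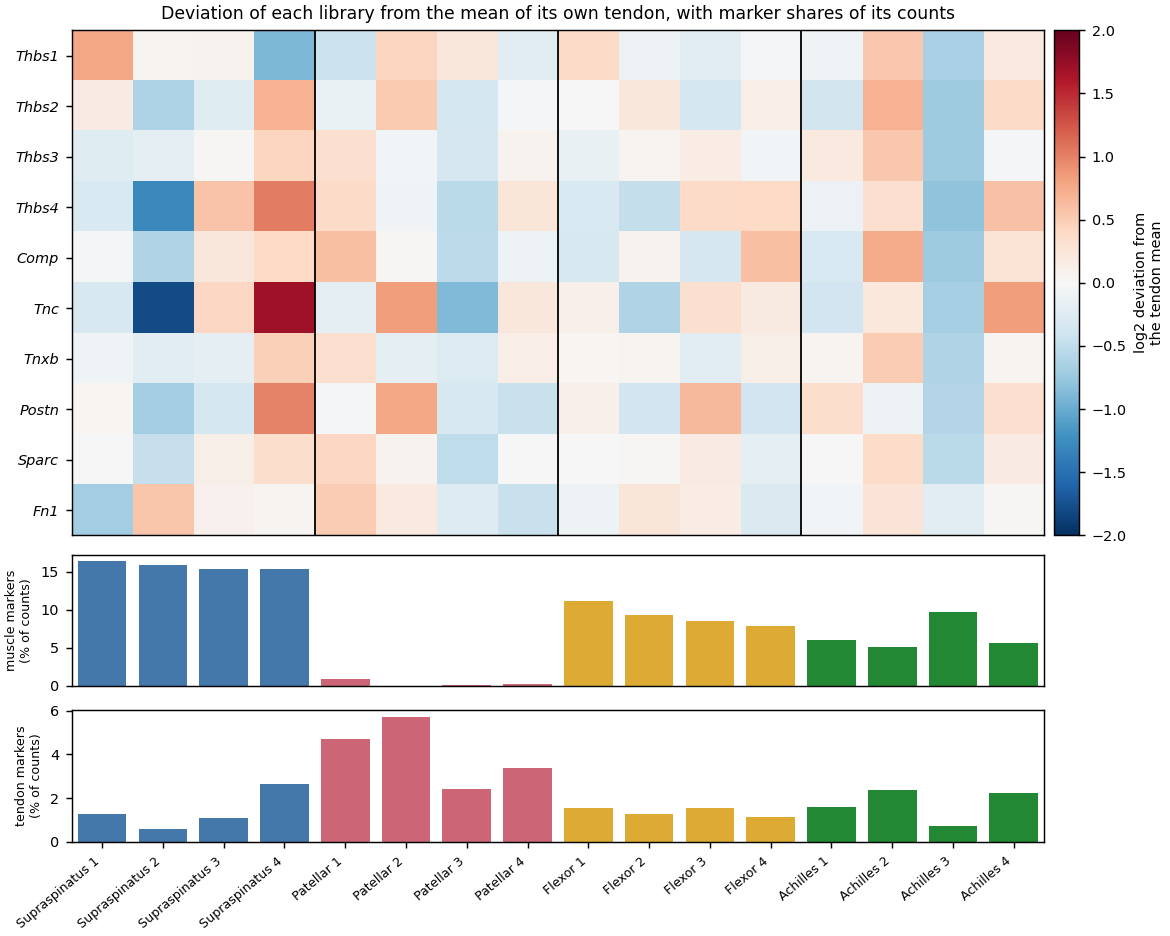
Deviation of each library from the mean log2 CPM of its own tendon for the 10 genes (red high, blue low), above the percent of counts in 20 skeletal muscle markers and in 9 tendon markers. Achilles replicate 3 is low in all 10 genes, and Supraspinatus replicates 2 and 4 are opposite in Tnc and Thbs4.

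By likeness over the 16 libraries, the nearest of the 9150 genes was Os9 for Thbs2 (r = 0.921), Cd109 for Thbs3 (0.937), Man1c1 for Thbs4 (0.862) and Itm2c for Comp (0.898). It was Nfib for Tnc (0.893), Tuft1 for Tnxb (0.920), Ets1 for Postn (0.902) and Sdc2, a heparan sulphate proteoglycan, for Fn1 (0.890). After the tendon means were subtracted, the nearest was Peg3 for Thbs1 (0.826), Rgma for Thbs2 (0.942), Pcolce, the procollagen C-endopeptidase enhancer, for Thbs3 (0.936), Angptl2 for Thbs4 (0.902) and Npdc1 for Comp (0.927). It was Copa for Tnc (0.912), Nfatc4 for Tnxb (0.911), Mfap2, a microfibril protein, for Postn (0.899), Adamtsl3 for Sparc (0.930) and Dcxr for Fn1 (0.846). These are descriptions over libraries that share depth and cell makeup.

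Some other matricellular genes differed by larger folds than the 10. Of 26 tested, 2 were higher and 12 lower in Supraspinatus than in Achilles (53.8% in all, against 33.6% of all genes tested), with a median log2 fold change of -0.88 against -0.04 for all genes tested. In Supraspinatus minus Flexor 1 was higher and 9 lower (38.5% against 27.1%), and in Supraspinatus minus Patellar 3 were higher and 11 lower (53.8% against 53.3%). The counts were 4 higher and 8 lower in Patellar minus Achilles (46.2% against 38.4%), 5 and 7 in Patellar minus Flexor (46.2% against 50.3%), and 2 and 4 in Flexor minus Achilles (23.1% against 16.2%). Spp1, osteopontin, had 6.33 to 49.3 CPM in Supraspinatus, where 3 of the 4 libraries were at 11.6 CPM or less, and averaged 93.2 ± 60.4 CPM in Patellar, 993 ± 338 CPM in Flexor and 1500 ± 509 CPM in Achilles (SD, n = 4). Its log2 fold change in Supraspinatus minus Achilles was -6.28 ± 0.69 (edgeR adjusted p = 7.6e-06). Bone cells also make Spp1, and the bone markers took 0.00185%, 0.0039%, 0.00246% and 0.0613% of counts in the same order. Achilles had the highest mean and Supraspinatus the lowest mean of both Spp1 and the bone markers. Mean Spp1 was higher in Flexor than in Patellar, while the mean share of bone markers was lower. Their part in the Spp1 differences was not tested.

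Smoc1, a calcium-binding relative of Sparc, averaged 2.42 ± 0.800 CPM in Supraspinatus, 60.0 ± 25.1 CPM in Patellar, 15.2 ± 5.15 CPM in Flexor and 59.2 ± 24.1 CPM in Achilles. Flexor was the next above Supraspinatus, and the log2 fold change of Supraspinatus minus Flexor was -2.65 ± 0.39 (edgeR adjusted p = 9.4e-05). Sparcl1, the closest paralogue of Sparc, averaged 161 ± 16.4 CPM in Supraspinatus, 144 ± 62.9 CPM in Patellar, 668 ± 136 CPM in Flexor and 610 ± 139 CPM in Achilles, an order unlike that of Sparc. It was lower in Patellar than in Achilles (log2 fold change -2.09 ± 0.27, adjusted p = 3.1e-05), where Sparc was higher. Fbln2, fibulin 2, averaged 843 ± 51.0 CPM in Supraspinatus and 883 ± 147 CPM in Flexor against 339 ± 60.4 CPM in Patellar and 335 ± 65.4 CPM in Achilles. Supraspinatus and Flexor are the forelimb tendons here and also had the lowest mean shares of adipocyte markers. A difference between limbs was not tested. Wisp2, a CCN family member also called Ccn5, was lowest in Supraspinatus at 10.7 ± 3.21 CPM, and Matn4, a matrilin, highest in Achilles at 31.8 ± 8.72 CPM.

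**Figure D5:**
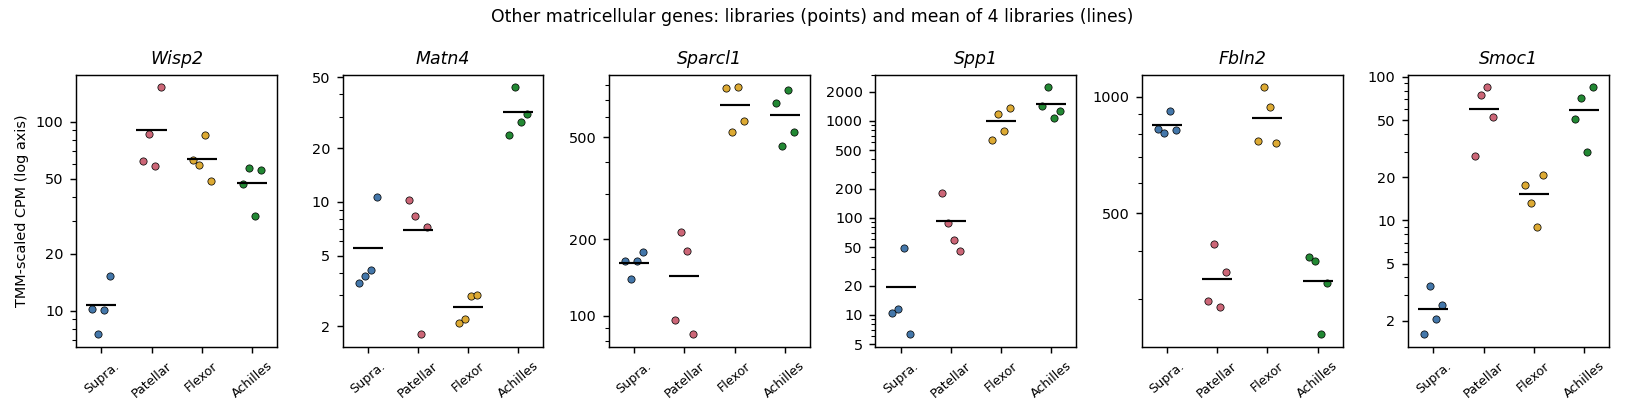
TMM-scaled CPM on log axes of the 6 other matricellular genes with the smallest adjusted p over the 4 tendons; points are libraries and lines the mean of 4. Spp1 and Smoc1 are lowest in Supraspinatus, and Fbln2 is higher in Supraspinatus and Flexor than in Patellar and Achilles.

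Of 23 receptors of these proteins, 4 were higher and 7 lower in Patellar than in Achilles (47.8% in all, against 38.4% of all genes tested), 6 and 6 in Supraspinatus minus Achilles (52.2% against 33.6%), and 3 and 1 in Flexor minus Achilles (17.4% against 16.2%). The counts were 5 higher and 9 lower in Patellar minus Flexor (60.9% against 50.3%), 6 and 7 in Supraspinatus minus Flexor (56.5% against 27.1%), and 5 and 5 in Supraspinatus minus Patellar (43.5% against 53.3%). Cd36, the scavenger receptor of Thbs1 and Thbs2, averaged 289 ± 99.1 CPM in Supraspinatus, 621 ± 244 CPM in Patellar, 232 ± 35.8 CPM in Flexor and 922 ± 130 CPM in Achilles. Adipocytes also express Cd36, and the 11 adipocyte markers followed the same split, at 0.111% ± 0.0694, 1.46% ± 0.751, 0.104% ± 0.0195 and 0.960% ± 0.259 of counts in the same order. The part of fat in the Cd36 difference was not tested. Itga5, the fibronectin receptor subunit, averaged 312 ± 17.5 CPM in Flexor and 119 ± 16 CPM in Achilles (log2 fold change 1.39 ± 0.16, edgeR adjusted p = 3.8e-05), a pair in which Fn1 had a log2 fold change of 0.04 ± 0.26. Itgav, another integrin subunit that binds fibronectin, periostin and tenascin-C, was highest in Supraspinatus at 97.5 ± 9.51 CPM. Cacna2d1, a calcium channel subunit known as a thrombospondin receptor in neurons, was 244 ± 33.2 CPM in Supraspinatus and 32.2 ± 11.2 CPM in Patellar, and it is also a gene of skeletal muscle, whose marker shares are given above. Their part in the Cacna2d1 difference was not tested.

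Matrix partners, the collagens, small proteoglycans and enzymes that the 10 proteins bind, were mostly higher in Patellar than in Achilles: of 19 tested, 12 were higher and 1 lower (68.4% in all, against 38.4% of all genes tested), with a median log2 fold change of 0.97 against -0.01 for all genes tested. Col1a1, Col1a2 and Fmod are also among the 9 tendon markers, which took 4.06% ± 1.46 of counts in Patellar and 1.75% ± 0.752 in Achilles. In Supraspinatus minus Achilles 8 were higher and 1 lower (47.4% against 33.6%), and in Flexor minus Achilles 4 were higher and 0 lower (21.1% against 16.2%). In Patellar minus Flexor 5 were higher and 2 lower (36.8% against 50.3%), in Supraspinatus minus Flexor 3 and 1 (21.1% against 27.1%), and in Supraspinatus minus Patellar 2 and 6 (42.1% against 53.3%). Bmp1, the procollagen C-proteinase, averaged 102 ± 45.0 CPM in Supraspinatus, 199 ± 55.1 CPM in Patellar, 29.7 ± 3.60 CPM in Flexor and 43.0 ± 8.16 CPM in Achilles, and was higher in Patellar than in Achilles (log2 fold change 2.21 ± 0.26, edgeR adjusted p = 1.3e-05). Fbn1, the microfibril protein fibrillin 1, averaged 430 ± 84.6 CPM in Supraspinatus, 249 ± 53.6 CPM in Patellar, 227 ± 57.6 CPM in Flexor and 115 ± 50.2 CPM in Achilles, lowest in Achilles as Tnxb was. Col12a1, whose collagen binds tenascin-X, averaged 141 ± 85.0, 383 ± 119, 101 ± 22.7 and 128 ± 27.7 CPM in the same order of tendons and was higher in Patellar than in Achilles (1.58 ± 0.35, adjusted p = 0.0023).

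In the authors' deposited table of 13452 genes all 10 genes were present, and the authors' calls and those made here had the same direction wherever both called a gene. The authors' table called 3, 6, 5, 7, 4 and 3 of the 10 in Flexor minus Achilles, Patellar minus Achilles, Supraspinatus minus Achilles, Patellar minus Flexor, Supraspinatus minus Flexor and Supraspinatus minus Patellar. The authors' deposited table alone called Tnc in Patellar minus Achilles, Tnxb in Patellar minus Flexor and Thbs2 in Supraspinatus minus Patellar, and the fit here alone called Thbs3 in Supraspinatus minus Patellar.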

How the data were processed

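The authors deposited a table of whole-number read counts for 41204 genes in 16 libraries, without normalization, and a second table with log2 fold changes, log2 CPM means and p-values of their own comparisons. The submitters' processing notes name FastQC, HISAT2, edgeR and the build mm10, without versions. Which counter, annotation and strand setting gave the counts is not stated in any source used here, so overlapping and antisense genes are uncertain.

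Tests were run on the deposited counts with edgeR 4.0.16 in R 4.3.3: filterByExpr by tendon, TMM scaling, a robust quasi-likelihood fit of 1 mean per tendon to all 16 libraries, two-sided tests of the 6 pairs and of all 4 tendons, and Benjamini-Hochberg adjustment over 23754 genes with a threshold of 0.05. Standard errors equal the size of the log2 fold change over the root of its F statistic. Levels per kilobase use exon unions from GENCODE (GRCm38, equivalent to mm10), which held 41188 of the 41204 gene IDs. Ratios and marker shares were compared with exact permutation tests over 70 assignments of 8 libraries. Log2 CPM for correlations used a prior count of 2. No pair of libraries of a tendon agreed within sampling noise. The fit was tested on simulated data. Other settings used DESeq2 1.42.0 and limma 3.58.1, and figures matplotlib 3.10.9.

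Named genes are the 10, the 6 genes per related list with the smallest adjusted p over the 4 tendons and a mean of at least 5 CPM, and the 3 genes most like each member by each measure, of which the text gives some and 1 is not reported here. The members and lists were chosen with earlier results of these data known, and the rRNA-like genes after their values had been seen.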

Additional observations from a re-analysis of the deposited data

Results flagged for a closer look

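In groups of 4 libraries, the highest or lowest library was compared with its nearest neighbour, and in 6 of 108 groups the gap was past the critical value of Dixon for its share of the range, a number close to the 1 in 20 that chance gives. Tnxb in Supraspinatus replicate 4 had 722 CPM, above the other Supraspinatus libraries at 448 to 493 CPM. The log2 ratio of Thbs1 to Thbs2 in the same library was -0.78, below the others of its tendon at 1.12 to 1.47. Supraspinatus replicate 2 stood apart upward in adipocyte markers (0.215% of counts), macrophage markers (0.184%) and platelet markers (0.0175%). Achilles replicate 1 stood apart upward in endothelial markers, with 0.131% of counts.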

How the results depend on the processing

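The 26 called differences of the 10 genes gave 714 values under other settings, of which 652 stayed past the threshold in the same direction, 62 did not pass and 0 reversed. In Supraspinatus minus Achilles 5 genes were called, against 3 with no filter, 2 with the muscle covariate, 3 with a fold minimum (log2 fold change of 1 in size) and 3 to 6 with 1 library left out. In Patellar minus Flexor 6 were called, against 1 with the muscle covariate and 4 to 7 with 1 library left out. In Supraspinatus minus Patellar 3 were called, against 5 with the DESeq2 test, 1 with the muscle covariate, 1 with the fold minimum and 2 to 4 with 1 library left out. With 1 library left out the counts were 3 in Flexor minus Achilles, 5 to 6 in Patellar minus Achilles, 3 to 5 in Supraspinatus minus Flexor and 8 to 10 over the 4 tendons. With no filter, the Thbs4 calls (adjusted p = 0.071 in Patellar minus Flexor and 0.053 in Supraspinatus minus Flexor) and the Tnc call in Patellar minus Flexor (0.071) were lost. A filter at a mean of 5 CPM moved the median log2 fold change of all genes by up to -0.242, in Supraspinatus minus Patellar. Apart from what the choice of genes and libraries itself changes, the cause was not tested.

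The deviations of libraries of equal mouse number had r from -0.135 to 0.255 over 24 pairs, 2 of them over 0.1. Pairs of unequal number had r from -0.215 to 0.144, and the highest r, 0.255, was between Supraspinatus replicate 4 and Flexor replicate 4. Of 16 libraries, 6 correlated best with their own number. These values do not settle whether equal numbers mark the same animal. With the replicate block 6 of the 10 genes were called in Patellar minus Achilles, 4 in Supraspinatus minus Achilles, 3 in Flexor minus Achilles, 6 in Patellar minus Flexor, 4 in Supraspinatus minus Flexor and 3 in Supraspinatus minus Patellar, and all 10 differed over the 4 tendons. Under the block Thbs3 in Supraspinatus minus Patellar (adjusted p = 0.051) and Postn in Supraspinatus minus Achilles (0.069) no longer passed, while Thbs2 in Supraspinatus minus Patellar (0.033) and Tnc in Patellar minus Achilles (0.043) did.

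Among log2 fold changes of the 10 genes, signs turned only for values that did not pass under either setting. Thbs3 in Patellar minus Achilles was -0.02, against 0.002 with DESeq2 size factors and with the DESeq2 test, 0.001 with the replicate block, 0.039 with limma voom, 0.10 with the 5 CPM filter, 0.11 with the muscle covariate and -0.21 to 0.19 with 1 library left out. With the 5 CPM filter, Fn1 and Thbs2 in Flexor minus Achilles were -0.019 and -0.012, Sparc in Supraspinatus minus Flexor -0.027 and Thbs4 in Supraspinatus minus Patellar -0.071, and the last was -0.031 with limma voom. With the muscle covariate Postn in Patellar minus Flexor was -0.60, against 0.47 without it, Sparc in Supraspinatus minus Flexor -0.024, and Thbs4 and Thbs2 in Supraspinatus minus Patellar -0.12 and 0.25, against 0.17 and -0.75. With 1 library left out, Fn1 in Flexor minus Achilles ran from -0.039 to 0.11, Thbs2 from -0.15 to 0.29 and Tnc from -0.51 to 0.002. Sparc in Supraspinatus minus Flexor ran from -0.083 to 0.18, Thbs4 in Supraspinatus minus Patellar from -0.21 to 0.47, and the log2 ratio of Thbs1 to Thbs2 in Supraspinatus minus Achilles from -0.052 to 0.70. Of the ratios and of the marker shares, 0 passed under any setting, and with 3 libraries in a group the exact test cannot pass.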
